A study of Hordeum vulgare with 32 samples.

Results

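Transcripts annotated as SET-domain or Jumonji proteins were followed in the barley (Hordeum vulgare) main shoot apex. They were taken as the rows of the deposited expression table whose Arabidopsis match or next 2 description columns contain SET domain, histone-lysine, SU(VAR), jumonji or jmjC, leaving out 4 named rows. This gave 80 of 30174 transcripts. One row left out, MLOC_69611.1, is the jmjC row at the locus of the int-a.1 line, so the values below are those of the other family members.

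Stocks GSHO 2055 (line int-a.1), GSHO 1986 (vrs4.k), GSHO 1907 (vrs1) and GSHO 2003 (int-c.5) gave 3 libraries at each stage, and Bowman, the cultivar whose background the 4 lines share, gave 4. Apices were taken at Waddington stages W5.5 and W3.5, which grade how far the spike and its florets have developed. The table's own headers give the later stage as W5. No treatment was given to any group; days had 16 h of light (22 °C) and 8 h of darkness (18 °C), with collection 6 to 8 h before lights-off. The labels give no lesion for any line, so no level checks which allele a library carries. In barley, VRS1 is known as a homeodomain factor, VRS4 as a LOB-domain factor, INT-C as a TCP factor and the int-a.1 locus, also called VRS3, as a Jumonji-type histone demethylase, all of which act on lateral spikelets. Nothing in the labels says that libraries of a group came from separate plants or pools, so p-values measure the spread between these libraries, which may be technical.

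SET-domain proteins add methyl groups to lysines of histones, and JmjC-domain proteins of the Jumonji family remove them. In plants, the E(z) class (CURLY LEAF, SWINGER) is the catalytic part of the Polycomb complex, which keeps developmental genes silent. The trithorax class places marks found at active genes, the ASH1 class marks transcribed gene bodies, and the SU(VAR)3-9 class (SUVH and SUVR proteins) marks heterochromatin. Among demethylases, the KDM3 group includes IBM1, which keeps the heterochromatin mark off genes in Arabidopsis. REF6 and ELF6 of the KDM4 group reverse the Polycomb mark there, and the KDM5 group acts on the trithorax-type mark. Some SET proteins act elsewhere, such as the Rubisco methyltransferase family and the plastid protein PTAC14. Class membership here rests on the best Arabidopsis match given in the table, or on its other descriptions for 8 rows with no direct match. No activity was measured.

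By class, 4 of the 80 rows were E(z)-like, 7 trithorax-like, 9 ASH1-like and 21 SU(VAR)3-9-like, and 18 were other SET rows. Among the Jumonji rows, 7 were KDM3-like, 5 KDM4-like, 3 KDM5-like and 5 JmjC-only, and 1 could not be placed in a subgroup. Of the 80 rows, 8 had no direct match, and the others matched 52 Arabidopsis loci. High-confidence gene models made up 59 and low-confidence models 19, which was 23.8% low-confidence against 52.5% of the whole table. MLOC_58402.1 (match FES1) and AK359278 (match AT1G26761) came in through a description and may be no SET enzymes. The table gives 51 of them a chromosome and a PopSeq map position, most often chromosome 2 (13 rows) or 7 (12 rows).

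Several rows may be pieces of one gene. The 3 ATXR3 rows MLOC_80597.2, MLOC_16720.1 and MLOC_51413.1 lie at positions 70.54 to 70.68 of chromosome 7, a crowded stretch of the map that also holds JMJD5-like and SUVR rows. Also near each other are the SUVR rows MLOC_51414.1 and MLOC_52100.1 (chromosome 2, 113.31), the SUVR5 rows MLOC_56967.1 and MLOC_14605.1 (chromosome 6, 66.08 and 65.93) and the ELF6 rows MLOC_57109.1 and MLOC_18285.1 (chromosome 4, 103.9 and 103.82). Reads could be split between such rows, so their levels are uncertain one by one and they are not independent of each other.

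Levels are TPM, a length-scaled abundance that adds up to between 980945 and 987728 in each library. Sequencing depth is therefore unknown, and no counting error can be given. The first principal component over all transcripts held 24.25% of the variance, with median scores of 18.6 at W5.5 and -22.91 at W3.5. Of the libraries, 4 scored beyond the other stage's median and are called apart from their stage. These were replicate 2 of vrs4.k W3.5 (52.95), replicate 1 of int-a.1 W3.5 (24.42), replicate 4 of Bowman W3.5 (21.71) and replicate 1 of int-c.5 W5.5 (-29.63). The meristem marker list (KNOTTED, SHOOT MERISTEMLESS and WUSCHEL words, 13 transcripts) summed to between 126 and 190 TPM at W5.5 and between 111 and 185 TPM at W3.5. In bulk apices, fewer cells of a type and less RNA per cell cannot be told apart.

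Nearly the whole family was detected in every library. The only one ever listed at 0 was MLOC_8759.1, a jmjC row with no direct match, at 0 TPM in 1 Bowman W5.5 library and at up to 11.8 TPM elsewhere. The median of the members' mean levels was 13.1 TPM, against 9.81 TPM over all transcripts. Only 15 averaged below 5 TPM and 6 above 50 TPM. Together the members summed to between 1442 and 1893 TPM at W5.5 and between 1274 and 1948 TPM at W3.5.

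**Figure D1:**
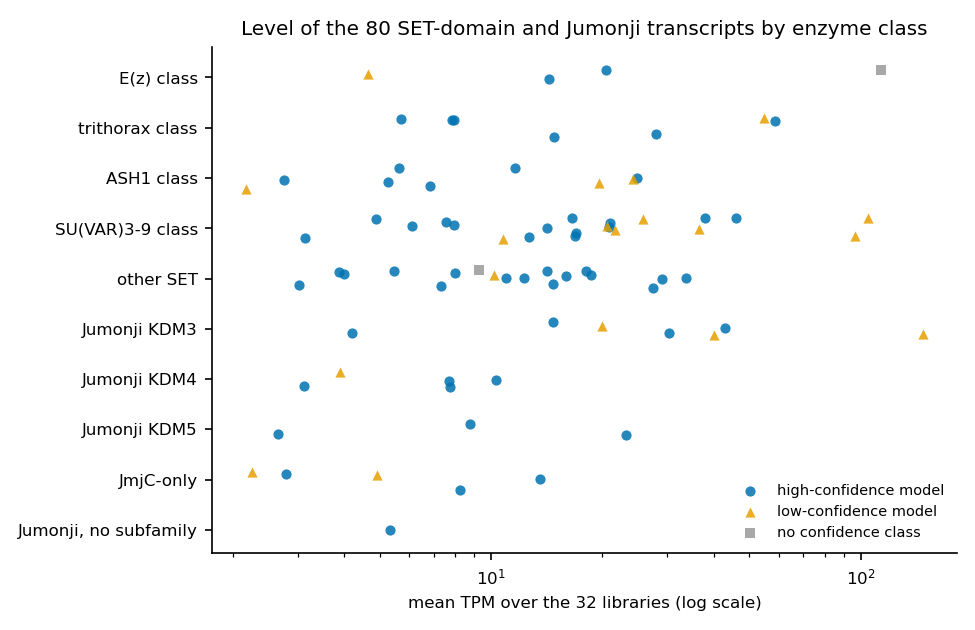
Mean TPM over the 32 libraries (log scale) of each of the 80 transcripts, in rows by enzyme class, with marker and colour by confidence of the gene model. SU(VAR)3-9-like rows are the most numerous (21), and the single highest row is the KDM3-like AK251482.1 at 147.8 TPM.

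In the Polycomb-type class one row stood far above the others. AK251231.1, a SWINGER match, had a lowest, median and highest level of 92.9, 116 and 140 TPM in the 16 W5.5 libraries, against 90.3, 103 and 140 TPM in the 16 W3.5 libraries. The other SWINGER row, MLOC_69040.3, averaged 14.4 TPM, and the CURLY LEAF rows MLOC_13033.3 and MLOC_71744.5 averaged 20.5 and 4.64 TPM. SWINGER and CURLY LEAF are alternative catalytic subunits of the same complex in Arabidopsis.

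Trithorax-like levels were led by the ATXR3 rows MLOC_80597.2 (58.8 TPM) and MLOC_16720.1 (54.7 TPM). ATXR3 is the main enzyme of the trithorax-type trimethyl mark in Arabidopsis. The ATX2, ATX4 and ATXR7 rows averaged between 5.69 TPM (AK372679, ATX4) and 14.8 TPM (AK362848, ATX2). ASH1-like rows were lower, led by AK362635 (ASHH2, 24.9 TPM) and MLOC_53367.1 (ASHR3, 24.2 TPM), and 3 of the 9 averaged above 15 TPM.

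SU(VAR)3-9-like rows made up the largest summed level of any class, a median of 544 TPM over the 32 libraries. MLOC_48575.1 (SUVR-like, 104.9 TPM) and MLOC_56967.1 (SUVR5, 96.6 TPM) led it, both low-confidence models. The SUVH3 rows MLOC_63544.1 and MLOC_36615.1 averaged 46.1 and 37.9 TPM, and the SUVH4 row MLOC_61815.1, whose Arabidopsis match is KRYPTONITE, averaged 20.8 TPM. SUVH9, the lowest of the class, averaged 3.13 TPM (MLOC_54264.1).

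Among the demethylases, IBM1-like AK251482.1 was the highest of all 80, at 135, 157 and 184 TPM (lowest, median, highest) at W5.5 and 111, 137 and 168 TPM at W3.5. The KDM3 group summed to a median of 302 TPM, against 33.3 TPM for the KDM4 group and 35.3 TPM for the KDM5 group. The REF6 row MLOC_14983.8 averaged 7.74 TPM and the ELF6 row MLOC_57109.1 averaged 10.3 TPM. Of the KDM5 group, PKDM7D (MLOC_1083.2) averaged 23.1 TPM and JMJ18 (AK358763) 2.65 TPM. JmjC-only rows had a median mean level of 4.89 TPM, the highest being MLOC_66228.8 (AT5G19840) at 13.6 TPM.

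Other SET rows were led by MLOC_37806.3 (AT2G18850, 33.7 TPM), AK358910 (PTAC14, 28.9 TPM) and MLOC_55907.2 (ATXR2, 27.3 TPM).

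Within groups, the members' levels varied about as much as those of other transcripts of like level and model confidence. The residual SD within groups, on the log2(TPM + 1) scale, had a median of 0.162 over the members and 0.252 over all transcripts. Among high-confidence models averaging at least 5 TPM the medians were closer, 0.145 over 49 members and 0.16 over 10873 transcripts. The steadiest row over the 32 libraries was MLOC_71715.1 (AT1G62310, KDM3 group), between 25.2 and 35.6 TPM with a coefficient of variation of 0.08. The most variable were MLOC_8759.1 (0.527), the ASHH2-like MLOC_26586.1 (0.465, between 0.77 and 4.5 TPM) and the JMJD5 row AK372811 (0.414), all of low level. MLOC_71715.1 and MLOC_26586.1 were picked out for these values.

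The first comparison asked whether any of these enzymes differed in a line that carries a row-type allele, against Bowman. None did by the threshold used, a Benjamini-Hochberg adjusted p below 0.05 over all 30174 transcripts in limma. At W5.5, 0 of 80 were called in each of the 4 lines. In the order int-a.1, vrs4.k, vrs1, int-c.5, 0.709%, 0.696%, 0.325% and 0.106% of all transcripts were called there. At W3.5, 0 of 80 were called in each line, with backgrounds of 0.653%, 0.653%, 0.341% and 0.0994%. With backgrounds this low, fewer than 1 of 80 would be called in each at the table's own rate, so a count of 0 does not set the members apart.

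At an unadjusted p below 0.05 the members counted 1, 3, 0 and 3 of 80 at W5.5 in that order of lines, against 11.8%, 10.1%, 4.3% and 5.35% of all transcripts. At W3.5 they counted 1, 10, 6 and 2, against 8.75%, 9.91%, 5.18% and 8.05%. Groups without overlap gave 5, 2, 1 and 8 of 80 at W5.5, where 11.3%, 9.47%, 5.66% and 7.8% of all transcripts had none. At W3.5 there were 0, 4, 4 and 1 members without overlap, against 5.53%, 5.24%, 4.01% and 6.71%.

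Averaging over both stages, which sets 6 libraries of a line against 8 of Bowman, also called 0 of 80 in each line. The backgrounds were 2.13% in int-a.1, 1.54% in vrs4.k, 0.497% in vrs1 and 0.345% in int-c.5. At an unadjusted p below 0.05 the members counted 1, 8, 7 and 4, against 13%, 12.3%, 6.83% and 11% of all transcripts. The smallest adjusted p among the members was 0.293, 0.160, 0.326 and 0.271 (limma). The 95% interval of the log2 fold lay within 0.5 of 0 for 78, 77, 73 and 75 of the 80, and within 1 of 0 for 80, 79, 80 and 80. A change in a member's level by more than 2-fold in either direction thus lay outside the interval for all of them but 1 in vrs4.k, with folds taken on TPM + 1, which understates changes of low rows. The authors' deposited table likewise had 0 members below a false discovery rate of 0.05 in any of its 12 columns of comparisons; its smallest was 0.0865, for ATXR2 (MLOC_55907.2) in vrs4.k overall.

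**Figure D2:**
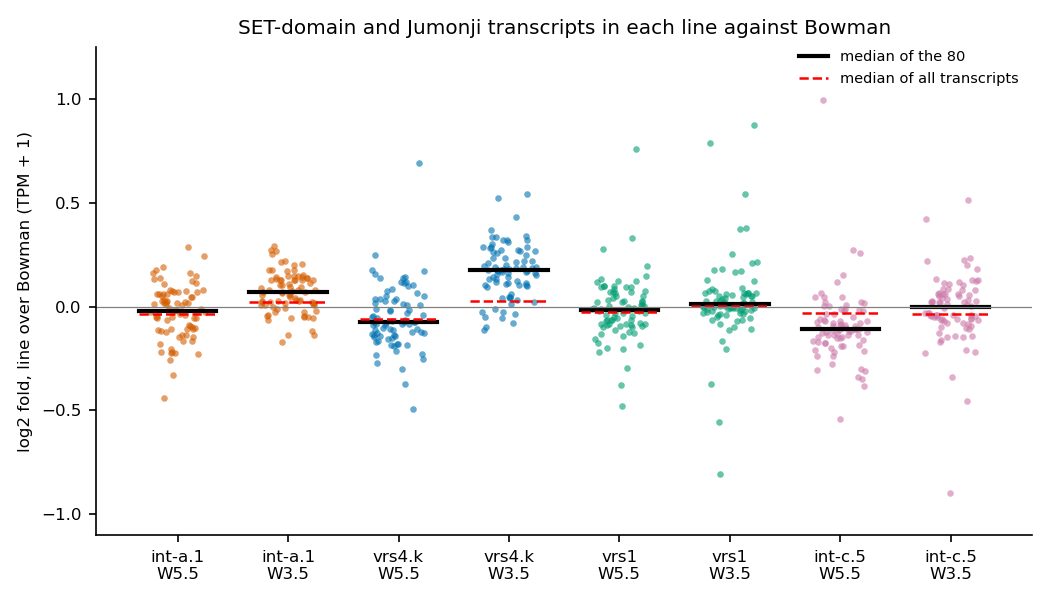
Log2 fold of each of the 80 transcripts in a line over Bowman on the TPM + 1 scale, one column per line and stage, with the members' median as a black bar and the median of all transcripts as a red dashed line. Most points lie within 0.5 of 0; the members' median stands apart from that of all transcripts in vrs4.k at W3.5 (0.178 and 0.027).

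The members nearest the threshold were small differences. In int-a.1 the CURLY LEAF row MLOC_13033.3 had 27.9, 21.6 and 23 TPM at W5.5, against 20.9, 18.6, 17.3 and 21.4 TPM in Bowman. At W3.5 it had 19, 19.4 and 20.6 TPM in int-a.1, against 16.9, 20.2, 13.1 and 22.8 TPM in Bowman. All 3 int-a.1 libraries lay above the Bowman ones at W5.5, and the groups overlapped at W3.5. The log2 fold over both stages was 0.21 (SE 0.088, adjusted p = 0.293, limma). Next in int-a.1 was MLOC_53868.1 (AT5G46910, KDM4 group), at 3.83 ± 0.666 TPM against 3.23 ± 0.499 TPM in Bowman at W5.5 (SD, n = 3 and 4) and not past the threshold.

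In vrs4.k the smallest p belonged to AK355371, a match of the heterochromatin-type enzyme SUVR3. It had 7.3, 7.3 and 5.4 TPM at W5.5, against 5.0, 5.3, 5.7 and 5.7 TPM in Bowman. At W3.5 the values were 8.3, 6.1 and 6.3 TPM in vrs4.k, against 5.3, 6.1, 5.9 and 4.9 TPM in Bowman. The groups touched or overlapped at both stages, and the log2 fold over both was 0.26 (SE 0.084, adjusted p = 0.160, limma). ATXR2 (MLOC_55907.2) had 27.6, 30.3 and 27.3 TPM in vrs4.k and 25.5, 26.7, 27.1 and 26 TPM in Bowman at W5.5, with no overlap. At W3.5 it had 30, 32.5 and 27.2 TPM in vrs4.k and 26, 24, 20.1 and 29 TPM in Bowman, with overlap. Its log2 fold over both stages was 0.19 (SE 0.066, adjusted p = 0.202, limma).

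In int-c.5 the smallest p belonged to AK371962 (AT5G63080, JmjC-only). It had 2.83, 3.1 and 3.38 TPM at W5.5, against 2.5, 2.4, 2.7 and 2.0 TPM in Bowman, and the groups did not overlap. At W3.5 it had 3.0, 3.04 and 2.68 TPM in int-c.5, against 2.9, 2.4, 2.2 and 2.8 TPM in Bowman, with overlap. Its log2 fold over both stages was 0.20 (SE 0.067, adjusted p = 0.271, limma). AK359278 (AT1G26761) had 10.3 ± 0.224 TPM at W3.5 in int-c.5 and 7.43 ± 0.562 TPM in Bowman (SD, n = 3 and 4). At W5.5 it had 10.3, 8.77 and 9.04 TPM in int-c.5 and 9.3, 7.5, 10.6 and 9.0 TPM in Bowman, with overlap. The log2 fold of AK359278 over both stages was 0.23 (SE 0.098, adjusted p = 0.395, limma). One of the int-c.5 W3.5 columns holds values rounded to whole TPM, which is coarse for rows this low.

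In vrs1 the smallest p-values belonged to JMJD5-like rows. JMJD5 is a JmjC-only protein tied to the circadian clock in Arabidopsis. A wider swing in fold was seen only for MLOC_8759.1, the row with a 0, whose folds over Bowman lay between -0.90 (int-c.5, W3.5) and 0.99 (int-c.5, W5.5) with no call. At W5.5 MLOC_36744.1 had 6.1, 7.5 and 4.3 TPM in vrs1, against 5.1, 7.4, 3.3 and 3.6 TPM in Bowman. At W3.5 it had 6.2, 8.4 and 7.2 TPM in vrs1, against 4.0, 3.2, 2.8 and 4.1 TPM in Bowman. The groups overlapped at W5.5 and were separate at W3.5, where the log2 fold was 0.87 (SE 0.254, adjusted p = 0.314, limma). This separation was not particular to vrs1. In vrs4.k at W3.5 the row had 6.8, 5.0 and 5.0 TPM, also above all Bowman W3.5 libraries. In int-c.5 (9, 5.73 and 2.89 TPM) and int-a.1 (4.1, 3.1 and 4.9 TPM) the W3.5 libraries overlapped those of Bowman.

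The second low-confidence JMJD5 row, AK372811, had 2.3, 3.6 and 2.9 TPM in vrs1 at W5.5, against 1.8, 4.3, 1.3 and 1.7 TPM in Bowman. At W3.5 it had 3.3, 4.9 and 3.1 TPM in vrs1, against 2.1, 2.3, 1.0 and 1.7 TPM in Bowman. Again only the W3.5 groups were separate (log2 fold 0.79, SE 0.263, adjusted p = 0.498, limma). MLOC_65982.2, the high-confidence JMJD5 row, had 8.8, 12.8 and 11 TPM in vrs1 at W3.5, against 6.4, 8.9, 4.1 and 10.4 TPM in Bowman, with overlap (0.54, SE 0.225, adjusted p = 0.813). None of the 3 was called at either stage or over both, where the folds were 0.57, 0.56 and 0.33. The 3 rows match 1 Arabidopsis locus and could share reads. In the authors' deposited table MLOC_36744.1 had a log2 fold of 0.995 and a false discovery rate of 0.362 in vrs1 at W3.5.

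**Figure D3:**
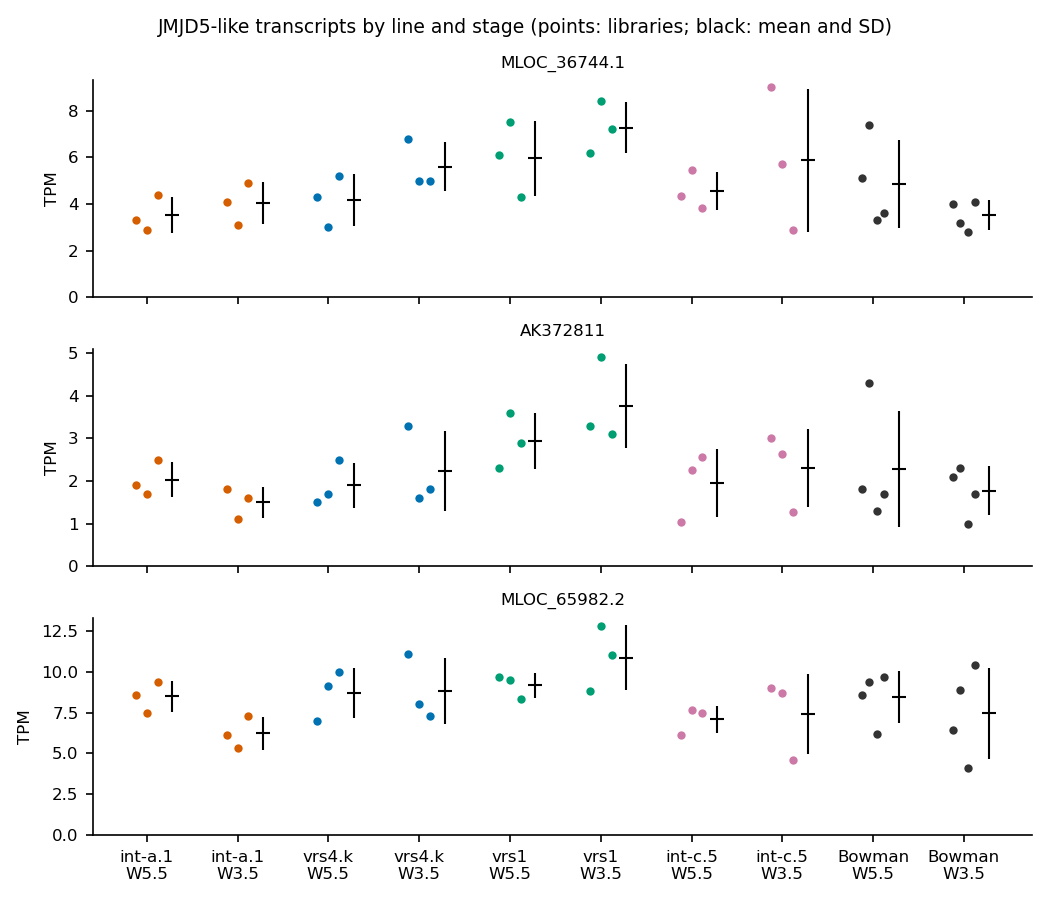
TPM of the 3 JMJD5-like transcripts in every library, by line and stage, with the mean and SD in black. In vrs1 at W3.5 MLOC_36744.1 (6.2 to 8.4 TPM) and AK372811 (3.1 to 4.9 TPM) lie above all Bowman W3.5 libraries. So does MLOC_36744.1 in vrs4.k at W3.5 (5.0 to 6.8 TPM), and one int-c.5 W3.5 library of that row reaches 9.0 TPM.

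In vrs4.k at W3.5 most members, like the rows of most other chromatin lists, had positive folds, and none was called. The log2 fold was positive for 71 of 80 (88.8%, against 55.2% of all transcripts), with a median of 0.178 against 0.027 over all transcripts. Other chromatin lists had like medians there: 0.182 for 82 remodeller rows, 0.197 for 21 DNA methylation rows, 0.145 for 19 histone deacetylases, 0.141 for 10 Polycomb partners and 0.116 for 13 histone acetyltransferases, but 0.022 for 10 LSD1-type demethylases. In int-a.1 at W3.5 the members were positive for 62 of 80 (77.5%, against 54.4% of all transcripts), with a median of 0.07 against 0.021. In vrs4.k at W3.5 all 21 SU(VAR)3-9-like rows, all 7 trithorax-like rows and all 7 KDM3-like rows were positive. So were 2 of the 4 E(z)-like rows in that line. Members at an unadjusted p below 0.05 in vrs4.k at W3.5 included ATX4 (MLOC_54032.2) and SUVR2 (MLOC_75034.1). ATX4 had 8.87 ± 0.513 TPM in vrs4.k against 6.9 ± 0.589 TPM in Bowman (SD, n = 3 and 4, log2 fold 0.32, adjusted p = 0.275, limma). SUVR2 had 12.3 ± 1.59 TPM against 8.98 ± 1.94 TPM (0.43, adjusted p = 0.323, limma). Both were named after their values were seen.

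Single libraries weighed on this lean. Without vrs4.k W3.5 replicate 2 the members' median was 0.098, against -0.012 over all transcripts, and 68 of 80 were positive. That library stood apart from its stage and had the highest summed member level of all libraries (1948 TPM). Without Bowman W3.5 replicate 1, which had the lowest summed level (1274.2 TPM), the medians were 0.116 and -0.002, and 64 of 80 were positive. Without Bowman W3.5 replicate 4 the medians were 0.221 and 0.035. Without vrs4.k W3.5 replicate 3 they were 0.259 and 0.065. With the first principal component as a covariate they were 0.064 and -0.014, and 60 of 80 were positive. The list of dividing-cell transcripts (198, found by histone, cyclin-dependent and replication words) had a median fold of 0.375, and summed to between 45752 and 48413 TPM in vrs4.k W3.5 and between 21650 and 47709 TPM in Bowman W3.5. Its part in the lean was not tested.

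The W5.5 comparison of vrs4.k showed no such lean: 27 of 80 were positive (33.8%, against 38.9% of all transcripts), with a median of -0.073 against -0.06. In int-c.5 at W5.5 the lean was the other way, with 15 of 80 positive (18.8%, against 43.5%) and a median of -0.107 against -0.03. Other chromatin lists leaned likewise there. Medians were -0.118 for remodellers, -0.108 for deacetylases, -0.087 for Polycomb partners and -0.086 for DNA methylation rows. They were -0.085 for LSD1-type demethylases and -0.061 for acetyltransferases. The interaction of vrs4.k and stage was negative for 73 of 80 (positive for 8.75%, against 38.6% of all transcripts). Its median was -0.238 against -0.086 over all transcripts. It called 0 of 80 and 0 of 30174 transcripts (limma), with 8 members and 6.22% of all transcripts at an unadjusted p below 0.05. In that interaction remodeller rows had a median of -0.267 and DNA methylation rows one of -0.231. The interactions of int-a.1, vrs1 and int-c.5 with stage also called 0 of 80 and 0 transcripts, and 1, 0 and 2 members were at an unadjusted p below 0.05, against 5.85%, 2.5% and 2.91% of all transcripts. They too were negative for most members, 55, 55 and 59 of 80, with medians of -0.085, -0.052 and -0.106 against -0.042, -0.022 and 0.016 over all transcripts. Positive members made up 31.2%, 31.2% and 26.2%, against 44.2%, 45.4% and 52.8% of all transcripts. All 4 interactions and the W3.5 comparisons share the Bowman W3.5 libraries.

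Near the loci that the lines carry, 3 members lay within 5 map units of a transcript taken to stand for the locus. This window was set after the data were seen. AK369206 (SUVH5) lies at 81.8 on chromosome 2, near the VRS1 row at 79.39, and its log2 fold in vrs1 over both stages was -0.13 (SE 0.083, adjusted p = 0.826, limma). MLOC_81864.2 (SDG37) lies at 22.24 on chromosome 4, near the INT-C row at 25.85, with a fold in int-c.5 of -0.10 (SE 0.087, adjusted p = 0.676). MLOC_53367.1 (ASHR3) lies at 48.65 on chromosome 1, near the jmjC row of int-a.1 at 47.52, with a fold in int-a.1 of -0.29 (SE 0.159, adjusted p = 0.46). In int-a.1 it had W5.5 levels of 21.6, 18.9 and 23.6 TPM, against 23.5, 29.1, 32.6 and 32.6 TPM in Bowman W5.5, a narrow overlap. None of these 3 was called, while 4.86%, 4.04% and 3.68% of all transcripts in the 3 windows were called in the line of that locus. No member lay within 5 units of the VRS4 row at 39.38 on chromosome 3, where 6.21% of 145 transcripts were called in vrs4.k.

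The second comparison asked which of these enzymes differed between the stages. Averaged over the 5 lines (16 libraries against 16), 13 rose at W5.5 relative to W3.5 and 1 fell, 14 of 80 or 17.5%. Over all transcripts 16.6% were called, 11.7% higher and 4.87% lower, so in this fit the share of members called is near the background and is not a result about the family. The median log2 fold was 0.097 over the members and 0.073 over all transcripts, and 69 of 80 (86.2%) were positive, against 66.1% of all transcripts. No called member changed by more than a log2 fold of 0.38.

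**Figure D4:**
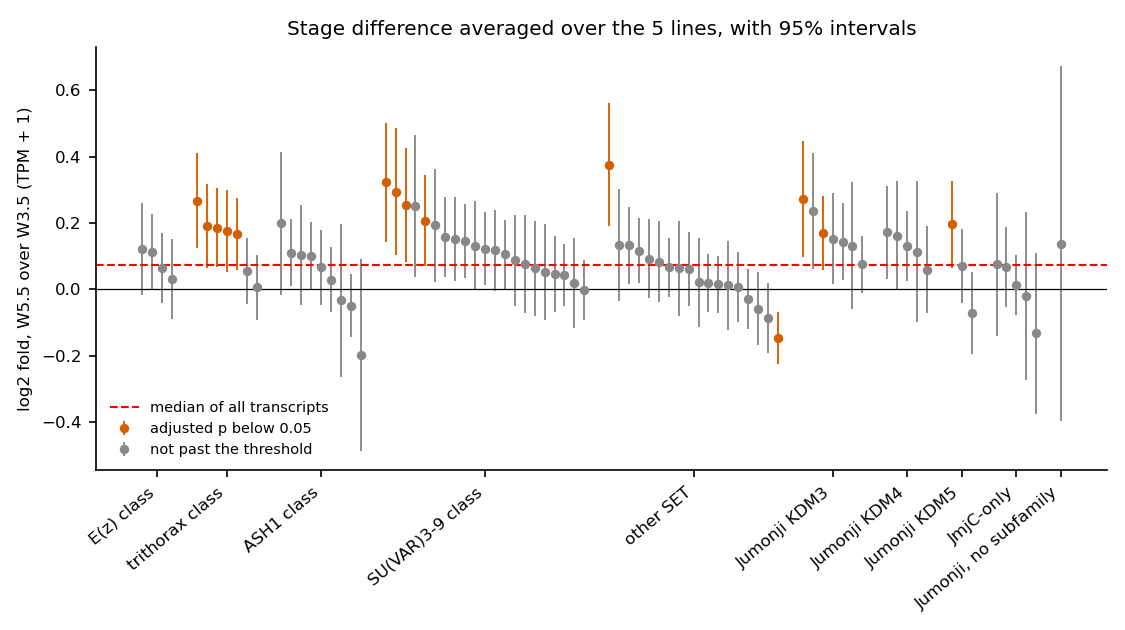
Log2 fold of W5.5 over W3.5, averaged over the 5 lines on the TPM + 1 scale, for each of the 80 transcripts with its 95% interval, grouped by enzyme class, with those past the adjusted p threshold in orange. The 13 higher calls lie between 0.17 and 0.38, the 1 lower call is at -0.15, and the red dashed line is the median of all transcripts (0.073).

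In the trithorax-like class 5 of 7 rose, where 11.7% of all transcripts were called higher. Of these 5, 3 are the neighbouring ATXR3 rows, which are not independent of each other. ATX4 (AK372679) had a lowest, median and highest level of 4.65, 6.44 and 7.7 TPM at W5.5, against 3.7, 4.9 and 6.9 TPM at W3.5. Its mean was higher at W5.5 in 5 of 5 lines, with a log2 fold of 0.27 (SE 0.069, adjusted p = 0.0148, limma). The other ATX4 row, MLOC_54032.2, was not called, with medians of 7.8 TPM at W5.5 and 7.85 TPM at W3.5. ATX2 (AK362848) had 12.7, 15.5 and 21.7 TPM at W5.5, against 11.2, 13.6 and 17.3 TPM at W3.5 (0.19, SE 0.058, adjusted p = 0.032). The ATXR3 row MLOC_80597.2 had 50.8, 63.8 and 71.1 TPM at W5.5, against 48.3, 54.4 and 66.9 TPM at W3.5 (0.17, SE 0.052, adjusted p = 0.0332). The other ATXR3 rows, MLOC_51413.1 and MLOC_16720.1, had folds of 0.19 and 0.18 (adjusted p = 0.0386 and 0.0457). The stages overlapped for each of them.

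In the SU(VAR)3-9-like class 4 of 21 rose, all of the SUVR type, and no SUVH row was called. Over all transcripts 11.7% were called higher. The calls did not separate the 2 types by size of change. The uncalled SUVH4 row MLOC_61815.1 had a W5.5 to W3.5 ratio of 1.143 on TPM + 1, against 1.154 for the called SUVR4 row AK369467. Another SUVR4 row, AK375881, was at 1.013 and was not called. Nor was a further SUVR2 row, MLOC_75034.1, at 1.037. SUVR2 (MLOC_52100.1) had 19.8, 28.9 and 36.7 TPM at W5.5, against 15.6, 22.9 and 34.4 TPM at W3.5 (lowest, median, highest; log2 fold 0.32, SE 0.087, adjusted p = 0.0175, limma). Its neighbour MLOC_51414.1 (SUVR4) had 28.2, 41.2 and 47.8 TPM at W5.5, against 24.1, 31.4 and 55 TPM at W3.5 (0.30, SE 0.093, adjusted p = 0.0335). The highest value of MLOC_51414.1 at W3.5 was in vrs4.k replicate 2, the library that stood apart. MLOC_34179.1 (SUVR-like) and AK369467 (SUVR4) had folds of 0.25 and 0.21 (adjusted p = 0.0396 and 0.0375), and 15 of the 16 W5.5 libraries of each lay above the W3.5 median.

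Among demethylases, 2 of the 7 KDM3-like rows rose, where 11.7% of all transcripts were called higher and 4.87% lower. In groups this small, neither a few calls nor a count of 0 sets a class apart. AK251482.1 (IBM1), whose levels are given above, had a log2 fold of 0.17 (SE 0.054, adjusted p = 0.0371, limma), and MLOC_11348.2 (AT4G00990) had 35.8, 46.8 and 57.5 TPM at W5.5, against 29, 37.3 and 56.3 TPM at W3.5 (0.27, SE 0.084, adjusted p = 0.0319). In the KDM5 group 1 of 3 rose: PKDM7D (MLOC_1083.2) had 18.4, 25.4 and 28.1 TPM at W5.5, against 16.6, 21.9 and 26 TPM at W3.5 (0.20, SE 0.064, adjusted p = 0.0387). PKDM7D is a demethylase that delays flowering in Arabidopsis. No KDM4-like row was called (0 of 5), though ELF6 (MLOC_57109.1, 11.4 against 9.45 TPM in the median) had a higher mean at W5.5 in 5 of 5 lines (0.17, SE 0.068, adjusted p = 0.0789). JmjC-only rows (0 of 5), ASH1-like rows (0 of 9) and E(z)-like rows (0 of 4) were not called either. The E(z)-like folds lay between 0.03 and 0.12, all positive.

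The call with the smallest adjusted p was in the other SET rows. MLOC_19846.9 (AT3G55080) had 9.66, 12.3 and 15.8 TPM at W5.5, against 6.61, 8.95 and 15.2 TPM at W3.5. All 16 W5.5 libraries lay above the W3.5 median, and the log2 fold was 0.38 (SE 0.09, adjusted p = 0.00987, limma). Its 2 highest W3.5 libraries, at 15.2 and 14 TPM, were vrs4.k replicate 2 and Bowman replicate 4, both apart from their stage. The only member that fell was MLOC_65264.2, of the Rubisco methyltransferase family, which had 12.5, 14 and 15.7 TPM at W5.5 and 13.2, 15.4 and 17.4 TPM at W3.5 (-0.15, SE 0.038, adjusted p = 0.0147, limma). Its mean was lower at W5.5 in all 5 lines, and 1 of 16 W5.5 libraries lay above the W3.5 median.

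**Figure D5:**
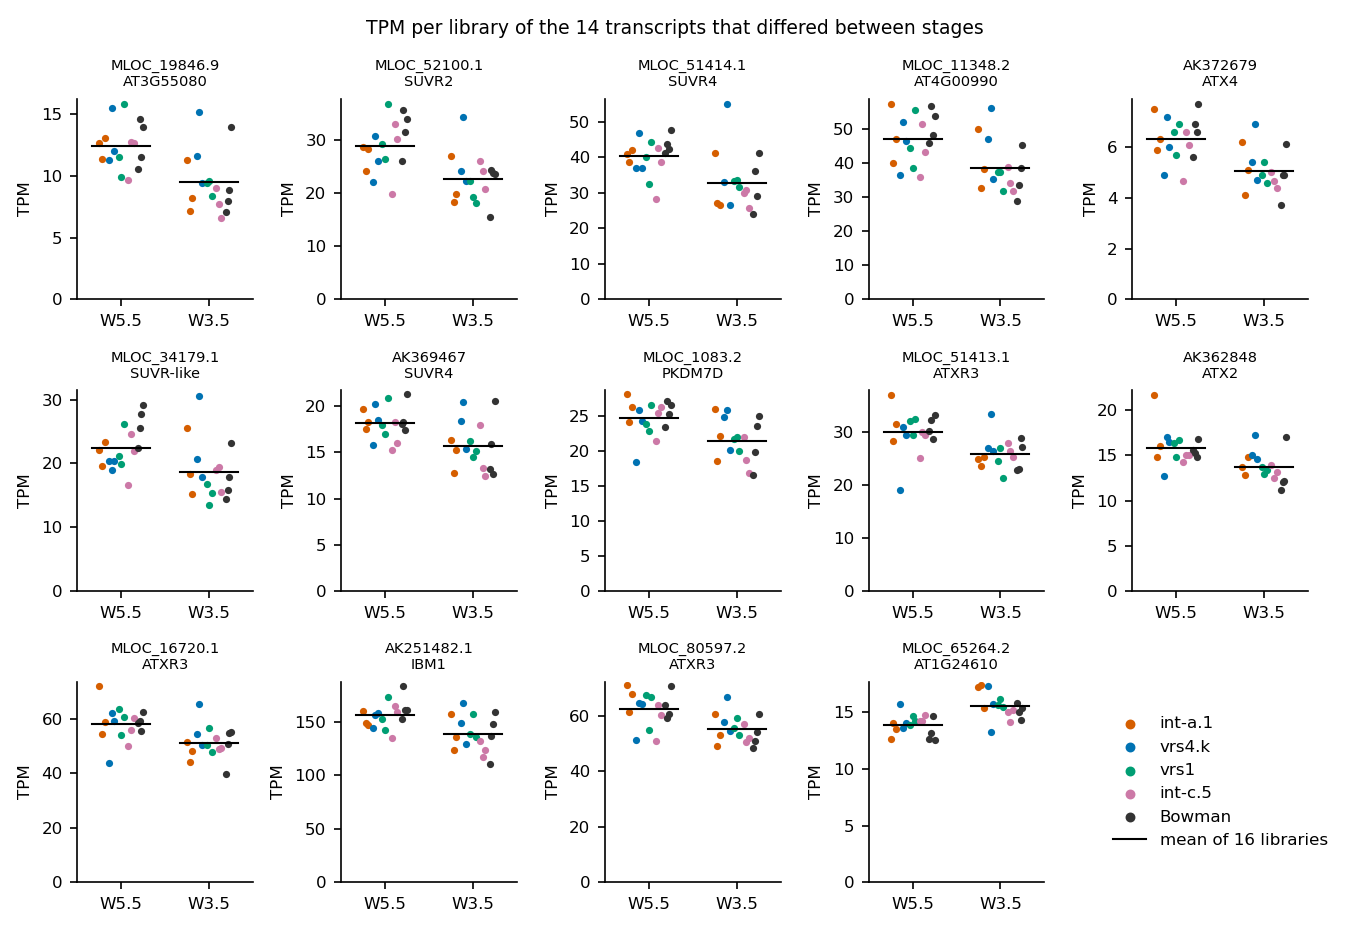
TPM in each library of the 14 transcripts called between stages, W5.5 on the left and W3.5 on the right, coloured by line, with black bars for the mean of 16 libraries. The stages overlap in every panel; for MLOC_19846.9 the W5.5 libraries span 9.66 to 15.8 TPM and the W3.5 libraries 6.61 to 15.2 TPM.

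The number of stage calls hung on single libraries. It was 4 without vrs1 W5.5 replicate 3, int-c.5 W5.5 replicate 2, int-a.1 W3.5 replicate 2, or, of vrs4.k, W3.5 replicate 3 and W5.5 replicate 2 in turn. It was 5 without vrs1 W3.5 replicate 3, int-c.5 W3.5 replicate 3 or int-c.5 W5.5 replicate 3. It was 6 without Bowman W3.5 replicate 1, or without W3.5 replicate 3 or W5.5 replicate 1 of int-a.1, or W3.5 replicate 1 or W5.5 replicate 3 of vrs4.k. Leaving out int-c.5 W3.5 replicate 2 gave 7, int-a.1 W5.5 replicate 3 gave 8, and Bowman W5.5 replicate 2 or 4 gave 9. It was 23 without replicate 2 of vrs4.k W3.5 and also without replicate 1 of int-a.1 W3.5, and 21 without int-c.5 W5.5 replicate 1, all 3 of them apart from their stage. It was 20 without vrs4.k W5.5 replicate 1, which was not apart, and 17 without Bowman W3.5 replicate 4, which was. Leaving out vrs1 W5.5 replicate 2, which was not apart, also gave 17. Without all 4 libraries apart from their stage 40 of 80 were called (39 higher), where 38.4% of all transcripts were. These libraries were picked for scores unlike their stage, so leaving them out favours stage calls. The background moved as well: where 4 members (5%) were called, between 9.05% and 10.3% of all transcripts were, and where 23 (28.8%) were called, 24.8% and 25.7% were. Where 5 (6.25%) or 6 (7.5%) were called, the background lay between 11.2% and 13.3%. It was 12.6% where 7 (8.75%) were called, 12.7% where 8 (10%) were, and 12.7% or 13.5% where 9 (11.2%) were. For 20 (25%) or 21 (26.2%) calls it was 20.8%, and for 17 (21.2%) it was 18.5% or 20.2%. The share of members thus lay below the background in some of these fits and above it in others. MLOC_52100.1, MLOC_65264.2, MLOC_19846.9 and AK372679 were called whichever library was left out.

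Scaling moved the split between directions. With quantile normalization 7 members rose and 1 fell (10%, against 15.6% of all transcripts called), and with median scaling 5 rose and 1 fell (7.5%, against 15.5%). Over all transcripts, 3543 rose and 1468 fell as reported, against 1964 and 2731 with quantile normalization and 2094 and 2578 with median scaling.

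Within single lines 0 of 80 were called between stages (limma), where 0 transcripts in Bowman, vrs4.k, vrs1 and int-c.5 and 3 in int-a.1 (0.00994%) were. At an unadjusted p below 0.05 the members counted 9 in int-a.1, 0 in vrs4.k, 4 in vrs1, 6 in int-c.5 and 24 in Bowman, against 12.9%, 2.1%, 7.16%, 15.8% and 22.2% of all transcripts. The median log2 fold of the members was 0.11, -0.035, 0.137, 0.097 and 0.211 in that order of lines, against 0.041, 0.003, 0.072, 0.104 and 0.1 over all transcripts. In Bowman 70 of 80 were positive, led by MLOC_34179.1 (SUVR-like, 0.55, SE 0.166, adjusted p = 0.116) and MLOC_52100.1 (SUVR2, 0.54, SE 0.173, adjusted p = 0.122, limma). Without Bowman W3.5 replicate 4, MLOC_34179.1 (0.67) and the SUVH5 row AK369206 (0.40) were called (adjusted p = 0.0492 for both), with 1.38% of all transcripts. Without the 4 libraries apart from their stage, 19 of 80 were called in Bowman, all higher at W5.5, with 10.6% of all transcripts. Those libraries were picked for scores unlike their stage, on a component that separates the stages. Leaving them out therefore favours stage calls, and these counts give no separate evidence of a stage difference.

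Tissue marker lists were read in the same fit, where 11.7% of all transcripts were called higher and 4.87% lower. The floral-organ list (MADS-box words) had 19 of 38 higher and 3 lower at W5.5, and summed to between 1097 and 1670 TPM at W5.5 and between 856 and 1678 TPM at W3.5. The dividing-cell list had 31 of 198 higher and 0 lower, between 33787 and 72615 TPM at W5.5 and between 21650 and 49993 TPM at W3.5. The epidermis list (lipid transfer protein, GLABRA and MERISTEM LAYER words) had 0 of 45 higher and 8 lower, between 1039 and 2448 TPM at W5.5 and between 940 and 3340 TPM at W3.5. Meristem words had 3 of 13 higher, photosynthesis words 9 of 64 higher, and vascular words 2 of 21 higher and 2 lower. The part of these markers in the members' stage differences was not tested.

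The partners and opposing enzymes of the family were read in the same fits, with the same backgrounds of 11.7% higher and 4.87% lower between stages. At W5.5 against W3.5, 0 of 10 Polycomb partners and 0 of 10 LSD1-type demethylases, the other class of histone demethylases, were called. The single trithorax partner found by its key words, the ULTRAPETALA match AK375269, fell by 0.28 on the log2 scale (adjusted p = 0.0306, limma). Of 13 histone acetyltransferases 2 fell, both matches of CBP family member 12. Of 19 histone deacetylases 6 rose and 1 fell, with 3 of the 6 matching histone deacetylase 5. Of 21 DNA methylation rows 4 rose, each a match of the DNA demethylases DEMETER-like 1 or 2. Of 82 chromatin remodeller rows 13 rose. Median folds of these lists lay between 0.009 (LSD1-type) and 0.128 (deacetylases), with the single ULTRAPETALA row aside, against 0.073 over all transcripts. Against Bowman, 1 row of these lists was called in any line or stage average: MLOC_42708.1, a helicase of the remodeller list, lower in vrs1 over both stages (log2 fold -1.32, adjusted p = 0.00906, limma).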

How the data were processed

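RNA was sequenced from the main shoot apex in 32 libraries (10 line-by-stage groups). The authors deposited 1 table of 30174 transcripts. Its expression values, headed as raw counts per the file headers, are mostly not whole and add up to nearly one total in every library; the deposited values were therefore read as TPM, a unit inferred from the values. In 1 deposited column, replicate 1 of int-c.5 W3.5, TPM had been rounded to whole numbers and was recorded as a score. The other int-c.5 columns carry more decimals than the rest. The authors' own log2 fold changes and false discovery rates (adjusted p-values, headed FDR per the file headers) were used only where named. GATK, Salmon, BWA and limma appear in the submitters' processing notes, with no role. Which genome build was used is not given in these sources. Columns name a group but no sample, so replicate numbers are names only; 0 per-sample columns were left unassigned.

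One limma model (version 3.58.1, R 4.3.3) was fitted to the 32 libraries on log2(TPM + 1), with 10 group means and no covariate, and p-values were adjusted over all transcripts within each of 22 comparisons. No filter was applied. Values after ± are SDs, and SE is that of a log2 fold. The script was tested on simulated data. Enzyme classes, key-word lists and members were chosen with earlier results of these data known. Members named with values are all that were called, the 2 highest of each class, the 2 with the smallest p in each line over both stages and the 4 smallest between stages, 35 in all; others are said to be named after their values were seen or stand as examples of a class. No identifier matched the reference gene table used here, so no sequence is shown. Alternatives were other pseudocounts, a filter on low means, quantile and median scaling, a mean-variance trend, library weights, only the compared groups, the first principal component as covariate, a stricter threshold, rounding, and leaving out libraries.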

Additional observations from a re-analysis of the deposited data

Results flagged for a closer look

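In 3 of 70 Bowman groups of 4 libraries tested for the members named by rule, one library lay far from the other 3; chance alone picks out about 1 in 20 such groups. SUVR2 (MLOC_52100.1) was at 15.6 TPM in Bowman W3.5 replicate 1 and at 23.6, 23.7 and 24.3 TPM in the others. SUVR5 (MLOC_56967.1) was at 117.8 TPM in Bowman W3.5 replicate 4, one of the libraries apart from their stage, and at 72.7, 74.8 and 79.4 TPM in the others. The JMJD5 row AK372811 was at 4.3 TPM in Bowman W5.5 replicate 2 and at 1.3, 1.7 and 1.8 TPM in the others. Without that library the row's log2 fold in vrs1 over both stages was 0.69 (adjusted p = 0.0825, limma). The library was picked for its high value of this row, so leaving it out favours a higher fold in vrs1. Over all alternatives for this row the adjusted p ranged from 0.0825 to 0.689 (limma).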

How the results depend on the processing

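The count of 0 members called held in every line comparison, interaction and within-line stage comparison under pseudocounts of 0.1 and 0.5, the filter, both scalings, the trend, only the compared groups, the stricter threshold and rounding. With library weights 1 member was called in int-a.1 at W3.5 (9.07% of all transcripts), 6 in vrs4.k at W3.5 (6.29%), 4 in vrs4.k (6.53%) and 1 in int-c.5 (1.45%) over both stages, and between stages 4 in Bowman (5.48%), 15 in int-a.1 (25.5%), 2 in vrs4.k (3.77%) and 17 in int-c.5 (26.3%). With the first principal component as covariate 1 (AK359278) was called in vrs4.k at W3.5 (0.752%) and 1 over both stages (2.51%). Without the 4 libraries apart from their stage 19 were called between stages in Bowman (10.6%) and 1 in int-c.5 (2.81%). Leaving those libraries out favours stage calls. Leaving out 1 library gave between 0 and 2 in Bowman between stages, and 0 in all other comparisons with a count of 0.

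Between stages over the 5 lines the 14 calls became 8 with quantile normalization (15.6%), 6 with median scaling (15.5%), 43 with library weights (50% of all transcripts), 0 with the first principal component (0.189%), 40 without the libraries apart from their stage (38.4%) and 1 at an adjusted p below 0.01 (3.43%); leaving out 1 library gave between 4 and 23 (9.05% to 25.7%). The libraries apart from their stage were picked on the first principal component, which itself separates the stages, so leaving them out favours stage calls. With that component as covariate, the folds of MLOC_11348.2 (-0.014) and MLOC_51414.1 (-0.01) changed sign. The cause of these changes was not tested. No paired analysis was possible because the columns carry no replicate numbers tied to samples. TPM keeps no depth, so what depth limits could not be judged; copies at one map position may share reads.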
